A study of Homo sapiens with 14 samples.

Results

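RNAs with a LINC symbol, which is used for long intergenic noncoding RNAs, were followed through the differentiation of NT2. NT2 is an embryonal carcinoma cell line of human origin. It behaves as a pluripotent stem cell and can be turned toward neurons or toward muscle. The RNAs described here were chosen by their measured level: a LINC RNA was taken as expressed where it reached 1 CPM, its count scaled to the total of the library, in both libraries of at least 1 group. Of 453 LINC genes in the count table of 25952 genes, 107 did so and 346 did not. That they were expressed somewhere is therefore not a result. The symbol does not settle the kind of gene. GENCODE v29 types 79 of the 107 as lincRNA, 11 as processed transcripts and 6 as antisense. It types 3 as transcribed unprocessed pseudogenes, 2 as sense-overlapping, 2 as protein-coding and the rest otherwise. All 107 are called LINC RNAs here.

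The series holds 14 RNA sequencing libraries of this 1 cell line, 2 for each of 7 groups. Of the groups, 3 were grown with retinoic acid (RA), at a final concentration of 10 µM per the labels' protocol, for 5, 10 or 21 days, the neuronal arm of the study. Another 3 were grown with bone morphogenetic protein 2 (BMP2) for the same times, the muscle arm; the protocol names 30 ng/ml for a first test and 40 ng/ml later and does not say which library had which. The last group was untreated on day 0. The protocol also names DMSO cultures as a negative control; none was analysed here, so time in culture and treatment cannot be told apart in any comparison with day 0. Nothing in the labels says whether the 2 libraries of a group came from separate cultures, so the tests measure the spread between these libraries, which may be technical. In bulk RNA, fewer cells that hold an RNA and less of it per cell cannot be told apart.

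Long intergenic noncoding RNAs are transcribed by RNA polymerase II, capped and usually spliced like messenger RNAs, but carry no long conserved reading frame. Most have unknown functions, and many are found in few cell types and at low levels. Some act at their own locus on neighbouring genes, some bind proteins or microRNAs elsewhere in the cell, and some are the primary transcripts of microRNAs or hold a short reading frame. In pluripotent cells several are driven by the core factors OCT4, SOX2 and NANOG, and LINC-ROR is known there for binding the microRNA miR-145 that would otherwise target the messages of those factors.

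Library totals ran from 45773278 to 75754396 counts. Levels are given as CPM scaled by the TMM factors of edgeR (TMM-scaled CPM). The 6 pluripotency markers POU5F1, NANOG, LIN28A, SOX2, DPPA4 and TDGF1 summed to 159 and 162 in the RA day 21 libraries and to 167 and 163 in the BMP2 day 21 libraries, against 5425 and 6082 in untreated cells. The 5 neuron markers in the table summed to 1046 and 692 at RA day 10 and to 531 and 565 at RA day 21, against 85.2 and 68.0 in untreated cells. At RA day 21 the sum was mostly NEFM and MAP2, with means of 359 and 152, against 30.2 and 32.1 in untreated cells. SNAP25 averaged 31.2, against 0.923. DCX averaged 5.58, below its 13.15 in untreated cells, and STMN2 0.320, against 0.186. At BMP2 day 21 the neuron markers summed to 126 and 189, also above untreated cells. DCX and STMN2 averaged 33.4 and 12.15 there, above their means at RA day 21. NEFM, MAP2 and SNAP25 averaged 63.9, 34.2 and 13.6, below theirs. With BMP2 the 4 smooth muscle markers summed to 1262 and 551 on day 5, 634 and 1240 on day 10 and 484 and 337 on day 21. They summed to 81.9 and 120 at RA day 21 and to 33.8 and 87.9 in untreated cells. The 5 cardiac and skeletal muscle markers summed to 1916 and 335 at BMP2 day 5 and to 245 and 213 on day 21, against 22.2 and 41.7 in untreated cells. The fibroblast markers COL1A1, COL3A1, LUM and DCN summed to 32850 and 31410 at BMP2 day 21. Their sums were 5472 and 5524 at RA day 21, against 9.69 and 20.6 in untreated cells. The BMP2 day 10 libraries stood apart from each other, with a correlation of 0.938 across log levels of all genes. Replicate 1 was closest to BMP2 day 5 replicate 2 (0.995) and replicate 2 to BMP2 day 21 replicate 2 (0.980). The fibroblast marker sums of the BMP2 day 10 libraries were 1538 and 13630. In 2 other groups a library was also closer to another group than to its own replicate. RA day 10 replicate 2 had a correlation of 0.983 with RA day 5 replicate 1 and 0.982 with its own replicate, and BMP2 day 5 replicate 2 had 0.995 with BMP2 day 10 replicate 1 and 0.985 with its own. Results that rest on the BMP2 day 10 libraries are given by library, and the other comparisons were repeated without both.

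The expressed LINC RNAs reached the threshold in fewer groups than other genes did. Of the 107, 32 (29.9%) were at the threshold in all 7 groups, against 76.8% of the 15345 genes of any kind that reached it somewhere. A further 24 LINC RNAs, 22.4%, reached it in 1 group alone, against 5.58% of all such genes. Their levels were low. The median over LINC RNAs of the highest group mean was 4.49 TMM-scaled CPM, against 38.8 over all genes at the threshold, and 25 of the 107 stayed under 2 in their highest group. The part of the low level in the number of groups reached was not tested.

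The number of LINC RNAs at the threshold was 60, 71 and 82 at RA days 5, 10 and 21, and 55, 52 and 65 at the same BMP2 days, against 46 in untreated cells. As percentages of the 107 these were 56.1, 66.4 and 76.6 for RA and 51.4, 48.6 and 60.7 for BMP2, against 43 for untreated cells. Among all genes at the threshold somewhere the share in a group ran only from 84.8% to 91.1%. RA day 21 held the highest mean for 39 LINC RNAs, 36.4%, against 19.9% of all such genes. BMP2 day 21 held it for 22, 20.6%, against 21.3%, and untreated cells for 15, 14%, against 26.8%. The lowest mean lay in untreated cells for 47 LINC RNAs, 43.9%, against 28.3% of all such genes. The choice by level used these same values. Of the 24 LINC RNAs at the threshold in 1 group alone, 8 reached it at RA day 21, 7 at BMP2 day 21 and 5 in untreated cells. The part of that choice in the shares given here was not tested, so they are a description.

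**Figure D1:**
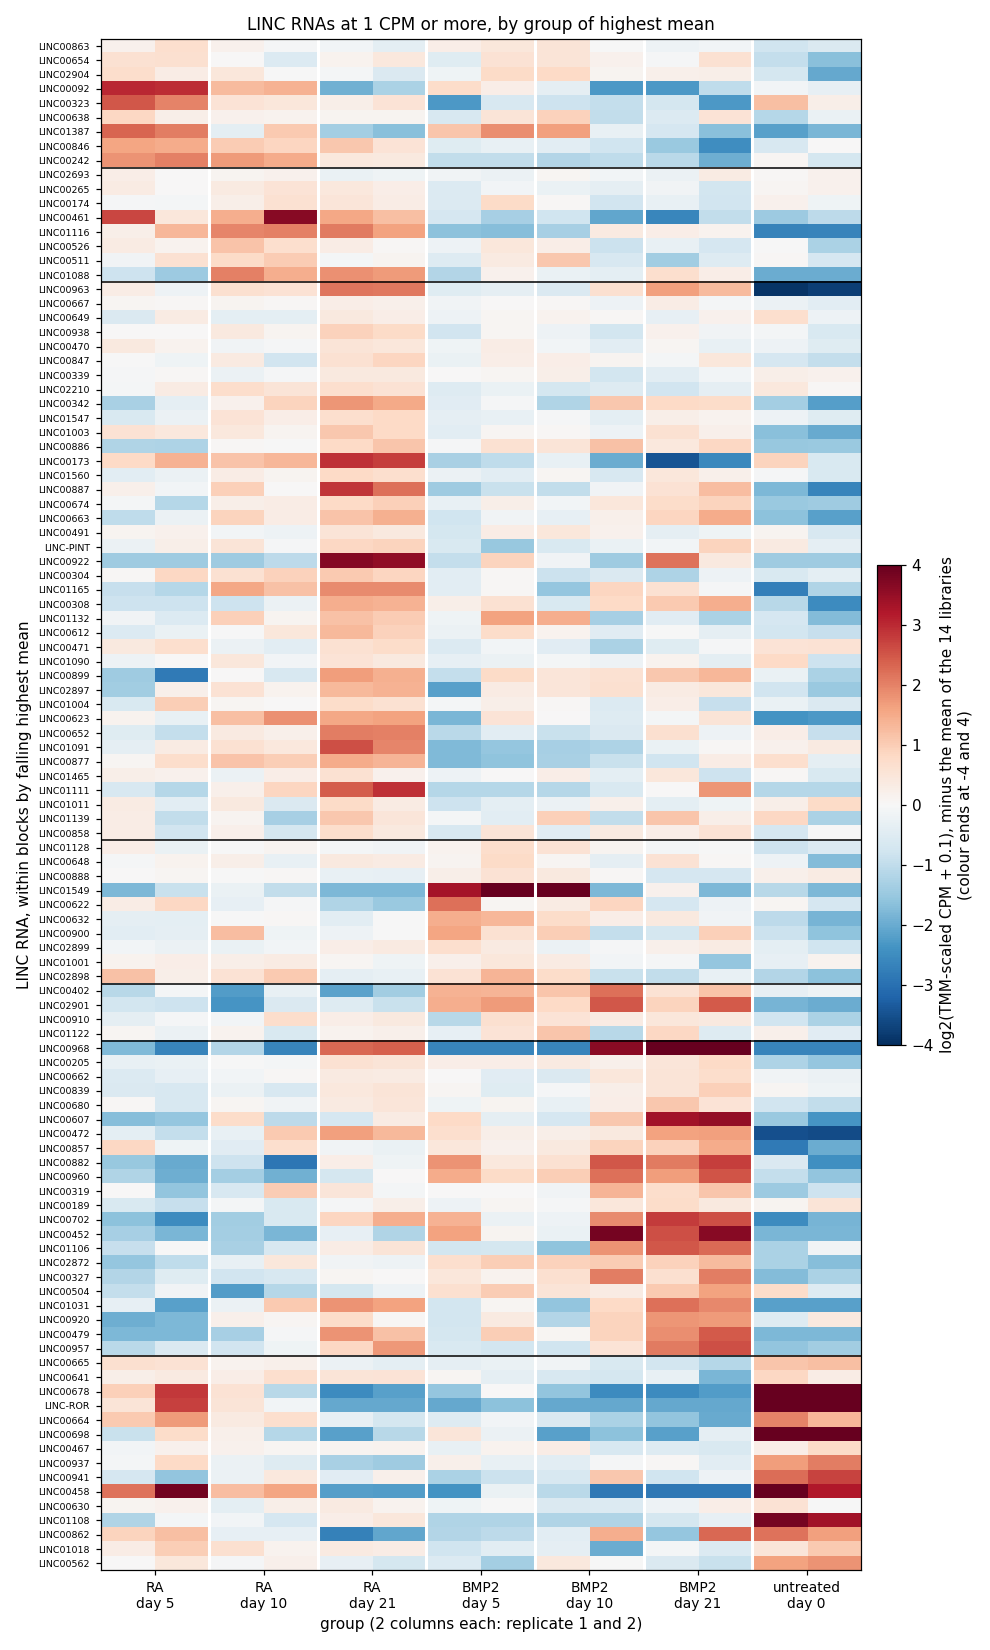
Each row is 1 of the 107 expressed LINC RNAs and each column 1 of the 14 libraries, in pairs by group; colour is log2(TMM-scaled CPM + 0.1) minus the mean of the row over all libraries, with colours ending at -4 and 4. Black lines part the rows by the group of their highest mean. The block of 39 rows highest at RA day 21 is the longest, the 15 rows highest in untreated cells stand at the bottom, and the 2 columns of BMP2 day 10 differ from each other in several rows.

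The authors' own RPKM values are read counts scaled to gene length and library size. For most of these RNAs the length was the whole gene span, introns included, so their order depends on the span as well as on the RNA. By that measure LINC00938 ranked first, with a mean of 10.9 RPKM at RA day 21. LINC00963 followed with 9.96 RPKM and LINC00205 with 9.28 RPKM in the same group, then LINC00641 with 8.52 RPKM at RA day 10. By TMM-scaled CPM, not scaled to length, LINC00963 averaged 279 at RA day 21 and LINC00938 20.75. LINC00641 was then highest in untreated cells, with a mean of 55.6. The length of a gene is the same in every group and does not move its highest group. The 2 measures also differ in library scaling. The TMM factors were 1.15 and 1.10 at RA day 10, against 0.977 and 0.949 in untreated cells. Not all rows are separate measurements. Of the 107, 39 overlap another gene of the table and 7 lie with at least 85.8% of their span inside one, among them LINC00678 inside BDNF-AS, LINC00562 inside SUCLA2, LINC00304 inside ACSF3, LINC00957 inside RASA4CP and LINC00242 inside LINC00574. LINC00562 and LINC00304 lie on the same strand as the gene around them, where strand would not part the reads. LINC00678, LINC00957 and LINC00242 lie on the opposite strand, and the counting is not stated to use strand. Reads of these pairs thus cannot be told apart.

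Start-site windows of 300 bases were found in RefSeq (GRCh38.p14) for 71 of the 107 RNAs. They were more GC-rich where an RNA was broad. The median was 59.2% G and C with 17 CG dinucleotides for the 20 windows of RNAs at the threshold in all 7 groups, and 44% with 4 CG for the 15 windows of RNAs at it in 1 group, with ranges that overlap, 39 to 78% and 35.3 to 66.7%. All 27305 windows of the table had a median of 58.3% with 14 CG, and the 1583 LINC windows 47.7% with 4 CG. The windows of 4 RNAs are printed to show the contrast. LINC01108 was found almost only in untreated cells. LINC02901 reached the threshold in both libraries only at BMP2 day 5, though its highest mean lay at BMP2 day 10. LINC00963 was present in all 7 groups, and LINC01116 was highest with RA. They lie at chr6:14285405-14285704 (minus strand), chr6:158869564-158869863 (plus), chr9:129488410-129488709 (plus) and chr2:176637560-176637859 (minus), in the order given below. Each runs from 250 bases before the annotated start to 50 after it, and capitals mark CG dinucleotides and the TATA box motif TATAAA.
LINC01108: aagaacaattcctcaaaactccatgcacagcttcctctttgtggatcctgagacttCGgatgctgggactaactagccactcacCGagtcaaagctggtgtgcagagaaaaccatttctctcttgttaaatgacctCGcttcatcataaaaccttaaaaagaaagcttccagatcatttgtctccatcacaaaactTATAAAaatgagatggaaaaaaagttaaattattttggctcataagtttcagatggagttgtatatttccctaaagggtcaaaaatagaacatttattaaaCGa
LINC02901: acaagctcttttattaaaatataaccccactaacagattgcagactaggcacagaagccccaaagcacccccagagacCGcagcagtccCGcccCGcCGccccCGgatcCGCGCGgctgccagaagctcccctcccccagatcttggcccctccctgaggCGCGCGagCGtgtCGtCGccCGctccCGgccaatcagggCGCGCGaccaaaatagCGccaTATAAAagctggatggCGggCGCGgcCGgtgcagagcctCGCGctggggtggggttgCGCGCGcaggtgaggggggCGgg
LINC00963: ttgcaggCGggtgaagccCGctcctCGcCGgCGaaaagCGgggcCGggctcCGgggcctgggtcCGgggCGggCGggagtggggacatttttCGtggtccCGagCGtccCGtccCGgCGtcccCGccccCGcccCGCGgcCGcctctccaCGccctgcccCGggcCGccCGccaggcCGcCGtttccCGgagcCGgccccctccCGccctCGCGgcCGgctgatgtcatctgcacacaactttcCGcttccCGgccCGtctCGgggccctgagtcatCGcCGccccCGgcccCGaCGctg
LINC01116: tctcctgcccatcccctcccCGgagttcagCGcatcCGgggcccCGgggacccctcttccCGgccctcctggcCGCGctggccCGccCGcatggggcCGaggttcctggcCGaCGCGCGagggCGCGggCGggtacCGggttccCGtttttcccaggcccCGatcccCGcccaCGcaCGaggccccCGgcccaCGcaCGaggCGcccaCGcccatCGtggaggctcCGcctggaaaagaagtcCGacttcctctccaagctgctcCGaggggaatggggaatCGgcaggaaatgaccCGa
The window of LINC01108 held 36.7% G and C and 4 CG, with TATAAA starting 54 bases before the start. That of LINC02901 held 66.7% and 30 CG with TATAAA 30 bases before the start, so not each RNA of 1 group had a CG-poor window. LINC00963 had 78% with 43 CG and LINC01116 72.7% with 34 CG, both without TATAAA. On either strand TATAAA stood in 11 of the 71 windows, 15.5%, against 12% of all windows. The retinoid receptor motif AGGTCA stood in 17, 23.9%, against 13.9%, and its direct repeat with a spacer of 5 bases in 0, against 0.00366%. The octamer ATGCAAAT stood in 1, that of LINC00641, or 1.41% against 1.8%, and the SMAD palindrome GTCTAGAC in 0 against 0.201%. A match is a run of letters and not a bound site.

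The threshold was reached in untreated cells alone by 5 RNAs, and the pluripotent cell RNAs LINC-ROR, LINC00678 and LINC01108 were among them; as their choice rests on that group, their levels are given without a test. LINC-ROR had 0.488 and 2.64 TMM-scaled CPM at RA day 5, 0.495 and 0.283 at RA day 10, 0 and 0 at RA day 21, 0 and 0.0314 at BMP2 day 5, and no count in any BMP2 day 10 or day 21 library, against 31.6 and 26.5 in untreated cells. It was thus at least 1367-fold lower at RA day 21, and at least 979-fold and 933-fold lower at BMP2 days 10 and 21, taking 3 counts over a group as the floor. The 2 untreated libraries stood far above all 12 others, and the highest treated library was RA day 5 replicate 2.

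LINC00678, whose whole span lies inside BDNF-AS, had 0.997 and 3.92 TMM-scaled CPM at RA day 5, against 31.6 and 35.3 in untreated cells, and at most 0.742 in the other 10 libraries. LINC00698 had 0.142 and 0.656 at RA day 5, 0.533 and 0.283 at BMP2 day 5 and 0 and 0.108 at RA day 21, against 23.8 and 12.4 in untreated cells. LINC01108 had 0 in all 4 BMP2 day 5 and day 10 libraries and at most 0.215 in the other treated ones, against 3.20 and 2.27 in untreated cells. All 3 thus had both untreated libraries above every treated one. LINC00562, which lies inside the coding gene SUCLA2, was less extreme, with means of 0.200 ± 0.055 at RA day 21 and 0.155 ± 0.042 at BMP2 day 21, against 1.26 ± 0.12 in untreated cells (SD, n = 2 each).

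LINC00458, the other pluripotent cell RNA of the list, also reached the threshold at RA days 5 and 10, so its later levels could be tested. It had 3.15 and 10.6 TMM-scaled CPM at RA day 5, 1.62 and 2.10 at RA day 10 and 0.0598 and 0.0539 at RA day 21, against 19.2 and 6.57 in untreated cells. At RA day 5 the 2 groups overlapped, and by RA day 21 they were far apart. With BMP2 it had 0.0381 and 0.503 on day 5, 0.248 and 0 on day 10 and 0 and 0 on day 21, already far below both untreated libraries on day 5. The fall passed the edgeR test at RA day 21 (log2 fold change -7.77 ± 1.54 SE, adjusted p = 0.0036) and at BMP2 day 21, where it was at least 414-fold (adjusted p = 0.0018); both calls held when any 1 library was left out. The pluripotency markers summed to 1585 and 2366 at RA day 5, to 581 and 825 at RA day 10 and to 728 and 804 at BMP2 day 5, against 5425 and 6082 in untreated cells. Their sums at RA day 10 and BMP2 day 5 overlapped, while LINC00458 was higher in both RA day 10 libraries than in either BMP2 day 5 library. Single markers went both ways. SOX2 and TDGF1 averaged 107.5 and 13.8 at RA day 10, against 26.6 and 4.75 at BMP2 day 5. POU5F1, LIN28A and DPPA4 averaged 29.5, 390 and 151, against 66.2, 489 and 168, and NANOG 11.14, against 11.05. In untreated cells the library with more LINC00458 had the lower marker sum.

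Another 4 RNAs highest in untreated cells, LINC00665, LINC00937, LINC00664 and LINC00941, were still detected in every treated library. LINC00665, known for a role in cancer cell growth, had 46.9 and 44.6 TMM-scaled CPM at RA day 5, 33.2 and 34.5 on day 10 and 25.4 and 23.1 on day 21. With BMP2 it had 23.1 and 25.1 on day 5, 27.1 and 19.6 on day 10 and 18.1 and 13.6 on day 21, against 65.1 and 69.3 in untreated cells. All 12 treated libraries lay below both untreated ones. The fall on day 21 was -1.47 ± 0.19 on the log2 scale with RA (edgeR adjusted p = 0.00034) and -2.09 ± 0.20 with BMP2 (adjusted p = 8.1e-05), and both held without any 1 library. LINC00937 fell likewise, to 1.61 and 1.48 at RA day 21 and 4.25 and 3.06 at BMP2 day 21, against 13.5 and 17.4 in untreated cells (log2 fold changes -3.32 ± 0.39 and -2.08 ± 0.37, edgeR adjusted p = 0.00022 and 0.0015). LINC00664, of whose span 33% lies inside ZNF429, fell to 6.07 and 4.71 at RA day 21 and to 2.52 and 1.83 at BMP2 day 21, against 31.0 and 19.6 in untreated cells. The changes of LINC00664 were -2.23 ± 0.38 and -3.54 ± 0.40 (edgeR adjusted p = 0.0012 and 0.00016). LINC00941 had 1.84 and 2.96 at RA day 21 and 1.42 and 2.20 at BMP2 day 21, against 12.3 and 17.1 in untreated cells. Its fall at BMP2 day 21 was -3.02 ± 0.63 (edgeR adjusted p = 0.0032); the call at RA day 21 ended without RA day 21 replicate 1, where the log2 fold change was -2.32.

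**Figure D2:**
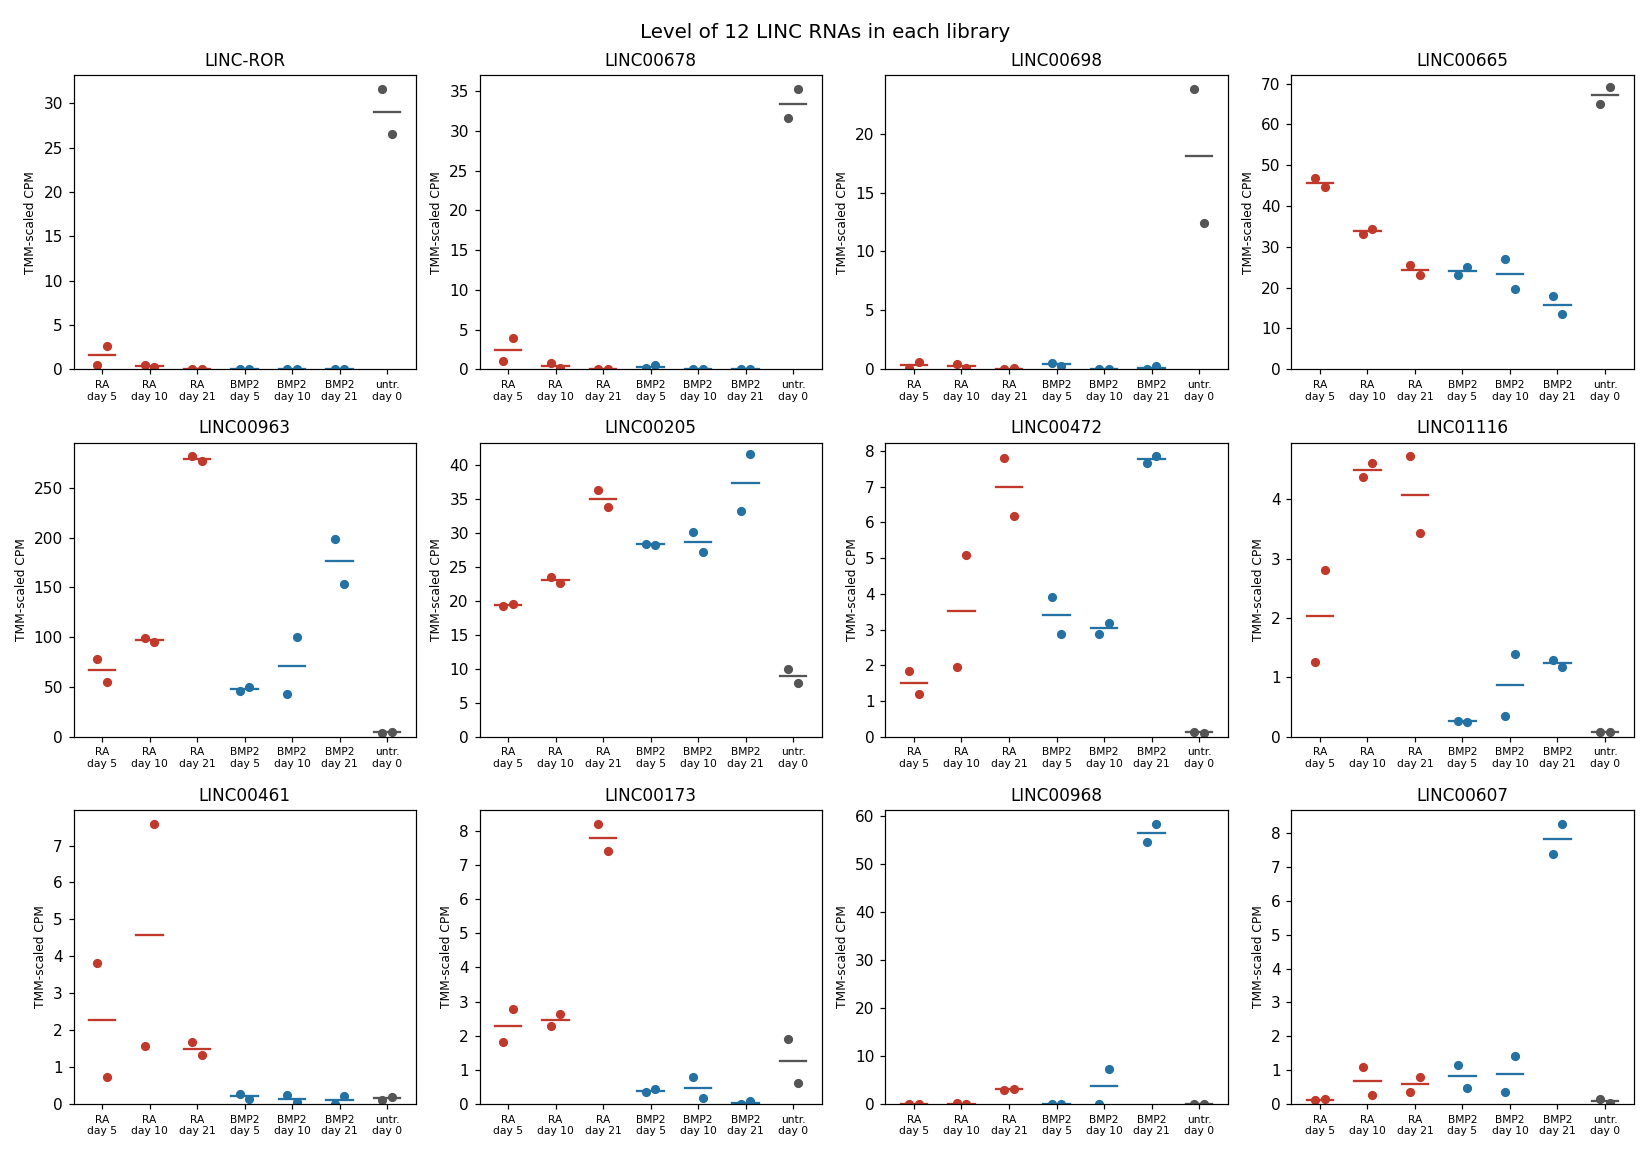
TMM-scaled CPM of 12 LINC RNAs in each library (points; horizontal lines are group means), with RA in red, BMP2 in blue and untreated cells in grey, each panel on its own axis from 0. LINC-ROR, LINC00678 and LINC00698 are high only in the 2 untreated libraries, LINC00963, LINC00205 and LINC00472 are lowest there, LINC01116, LINC00461 and LINC00173 are highest with RA, and LINC00968 and LINC00607 at BMP2 day 21.

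LINC00963 had the largest rise in absolute level among the 107. It is an RNA known from prostate cancer cells, and its window above is the second richest in CG of the 71. It had 78.4 and 55.1 TMM-scaled CPM at RA day 5, 99.5 and 95.0 on day 10 and 282 and 277 on day 21. With BMP2 it had 45.8 and 49.6 on day 5, 42.5 and 100 on day 10 and 199 and 154 on day 21, against 4.10 and 4.56 in untreated cells. Every treated library was above both untreated ones, and the BMP2 day 10 libraries differed most. The log2 fold changes against untreated cells were 3.94 ± 0.37, 4.49 ± 0.38 and 6.01 ± 0.41 at RA days 5, 10 and 21, with edgeR adjusted p of 0.00037, 0.00014 and 3.6e-05. At BMP2 days 5, 10 and 21 they were 3.46 ± 0.36, 4.04 ± 0.37 and 5.34 ± 0.39, with edgeR adjusted p of 0.00029, 0.00017 and 4.9e-05. All 6 calls held when any 1 library was left out. RA and BMP2 did not differ by the test on any of the 3 days, which does not show equal levels.

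LINC00963 was the most abundant LINC RNA by CPM in all 12 treated libraries, where it made up between 7.93% and 31.5% of the summed level of the 107. That sum was 908 and 880 TMM-scaled CPM at RA day 21 and 765 and 743 at BMP2 day 21, against 641 and 539 in untreated cells. Without LINC00963 it was 626 and 603 at RA day 21 and 566 and 589 at BMP2 day 21, against 636 and 534 in untreated cells, so that both treated groups then overlapped the untreated one.

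**Figure D3:**
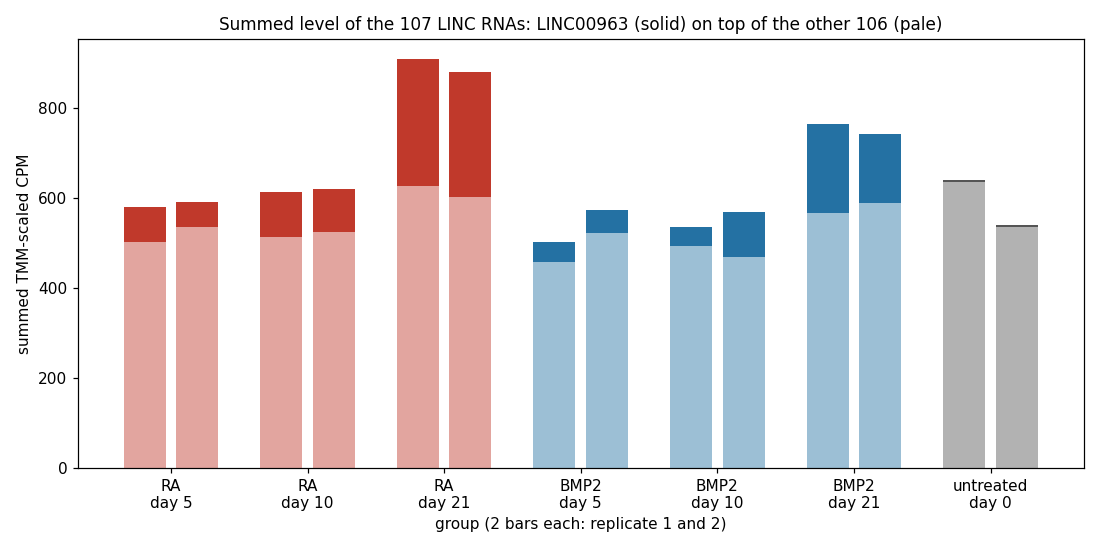
Bars give the summed TMM-scaled CPM of the 107 expressed LINC RNAs in each library; the solid top of each bar is LINC00963 and the pale lower part the other 106. The pale parts lie between 457 and 636 in all libraries, and the solid parts between 42.5 and 282 in treated libraries, against 4.10 and 4.56 in untreated ones.

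Other RNAs rose with both treatments. LINC00472, which is known as a growth-suppressing RNA in breast cancer and spans the microRNA gene MIR30C2, had 7.81 and 6.18 TMM-scaled CPM at RA day 21 and 7.68 and 7.85 at BMP2 day 21, against 0.122 and 0.111 in untreated cells. Its changes were 5.89 ± 0.55 and 6.04 ± 0.56 on the log2 scale (edgeR adjusted p = 9.2e-05 and 7.8e-05), and it had risen at all earlier times too. LINC00205 had 36.3 and 33.8 at RA day 21 and 33.2 and 41.6 at BMP2 day 21, against 9.98 and 7.97 in untreated cells, changes of 1.97 ± 0.18 and 2.06 ± 0.18 (edgeR adjusted p = 8.5e-05 and 6.5e-05). LINC01003 had 8.84 and 7.17 at RA day 21 and 6.28 and 4.70 at BMP2 day 21, against 1.22 and 0.932 in untreated cells, changes of 2.90 ± 0.33 and 2.35 ± 0.33 (edgeR adjusted p = 0.00019 and 0.00038). For all 3 every library of both groups lay above both untreated libraries, and all 6 calls held without any 1 library. LINC00472 and LINC01003 stand outside the rule for naming genes and were chosen after their values were seen, as were LINC00937, LINC00938 and LINC00562 above and LINC00092, LINC00857, LINC00887, LINC00886, LINC00663, LINC02210 and LINC01549 below.

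After 5 days of RA, as at all later times, tests are given for RNAs that reach the threshold in a group other than the 2 compared. The values compared thus did not choose them. Against untreated cells, however, those other groups were all treated ones. RNAs at the threshold in untreated cells alone thus could not count as lower, while RNAs high in other treated groups were kept. The part of this choice in the shares by direction was not tested. Of the 99 RNAs chosen in this way at RA day 5, 10 were higher and 2 lower than in untreated cells. That is 12.1% called, against 8.31% of all genes tested and 10.1% of the genes at the threshold outside the 2 groups. By direction, 10.1% of the LINC RNAs were higher, against 6.92% of those genes, and 2.02% lower, against 3.22%. The median log2 fold change over the 99 was 0.50, against 0.01 over those genes. LINC00963, LINC00472 (3.68 ± 0.52, edgeR adjusted p = 0.0029) and LINC01003 (2.45 ± 0.33, adjusted p = 0.0023) kept their calls without any 1 library; the other 9 did not. LINC01116, whose nearest protein-coding gene is MTX2, had 1.26 and 2.80 TMM-scaled CPM, against 0.0811 and 0.0835 in untreated cells (4.59 ± 0.71, adjusted p = 0.0045), a call that ended without untreated replicate 2. Over all 107, 16 were called with edgeR and 32 with DESeq2. The edgeR number fell to 6 without RA day 5 replicate 1, 10 without RA day 5 replicate 2, and 6 and 4 without untreated replicates 1 and 2. LINC00092 and LINC01387 were highest at this time. LINC00092 had 3.95 and 3.71 at RA day 5, 1.10 and 1.19 on day 10 and 0.0299 and 0.108 on day 21, and LINC01387 had 2.16 and 1.76, then 0.247 and 0.834, then 0.0747 and 0.0404. In untreated cells LINC00092 had 0.365 and 0.292 and LINC01387 0 and 0.0278.

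After 10 days of RA, 22 of 102 LINC RNAs chosen outside the 2 groups were higher and 5 lower. That is 26.5%, against 24% of all genes tested and 29% of the genes at the threshold outside the groups, so the share called was near the background. By direction, 21.6% were higher, against 15.5% of those genes, and 4.90% lower, against 13.4%. Of the 27 calls, 8 held without any 1 library. They were LINC00963, LINC00472, LINC01003, LINC00205, LINC00937, LINC01116, LINC01088 and LINC00623. LINC01088 had 1.52 and 0.998 TMM-scaled CPM and no count in untreated cells, at least 50.9-fold higher (edgeR adjusted p = 0.0020). LINC00623 had 1.35 and 2.10, against 0.0203 and 0.0278 (6.02 ± 1.09 on the log2 scale, edgeR adjusted p = 0.0043). LINC01116 had 4.38 and 4.60, against 0.0811 and 0.0835 (5.73 ± 0.74, adjusted p = 0.00093). Over all 107, 31 were called, which fell to 19 without either RA day 10 library or untreated replicate 1 and to 13 without untreated replicate 2.

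At RA day 21 the number of called LINC RNAs was the largest of the RA times. Of 93 LINC RNAs chosen outside the 2 groups, 35 were higher and 7 lower, 45.2% in all, against 44.6% of all genes tested and 51.9% of the genes at the threshold outside the groups. Again more rose and fewer fell than among those genes, 37.6% against 27.2% and 7.53% against 24.7%. The median log2 fold change was 1.14, against 0.09. Of the 42 calls, 20 held without any 1 library. LINC00887 had 7.04 and 4.41 TMM-scaled CPM, against 0.182 and 0.0557 in untreated cells (5.61 ± 0.75, edgeR adjusted p = 0.00037). LINC00663 had 4.24 and 5.15, against 0.527 and 0.334 (3.45 ± 0.52, adjusted p = 0.00064), and LINC00886 had 7.02 and 8.72, against 1.34 and 1.36 (2.54 ± 0.35, adjusted p = 0.00044). In these 3 RNAs the groups were far apart. LINC00479 had 1.10 and 0.687 and no count in untreated cells, at least 36.2-fold higher (edgeR adjusted p = 0.0045). LINC00922 and LINC01111, chosen through this group, had 3.32 and 3.04, and 1.09 and 1.56, and no count in untreated cells, at least 128-fold and 53.6-fold higher. LINC00862 had 0 and 0.0539, against 2.88 and 1.93 in untreated cells (-6.33 ± 1.56, adjusted p = 0.0084), a call that ended without RA day 21 replicate 1, with a log2 fold change of -5.43. Over all 107, 52 were called, which fell to 32 without either RA day 21 library and to 29 without untreated replicate 2.

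**Figure D4:**
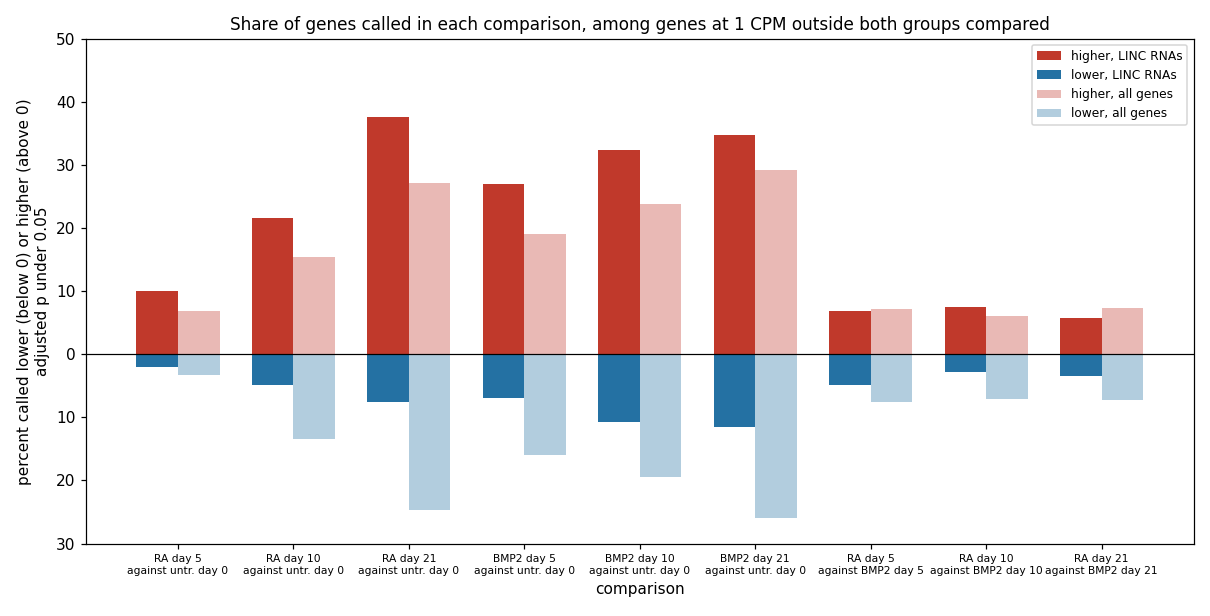
Percent of genes called higher (above 0) or lower (below 0) at an edgeR adjusted p under 0.05 in each comparison, solid for the expressed LINC RNAs and pale for all genes, in both cases those at 1 CPM in some group outside the 2 compared. Against untreated cells the solid bars reach higher above 0 and less far below it than the pale ones. This holds in all 6 comparisons, which share the untreated libraries. At RA day 21 the bars are 37.6 and 7.53%, against 27.2 and 24.7%. In these 6 comparisons the groups outside are all treated ones, so genes at 1 CPM in untreated cells alone are left out.

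After 5 days of BMP2, 34 of 100 LINC RNAs chosen outside the 2 groups differed from untreated cells, 27 higher and 7 lower. This 34% stood against 29.2% of all genes tested and 34.9% of the genes at the threshold outside the groups, while the higher share was 27%, against 19.1%, and the lower share 7%, against 15.9%. Of the 34 calls, 13 held without any 1 library. LINC00632, from whose locus the circular RNA CDR1as is known to come, had 6.6 and 5.96 TMM-scaled CPM, against 1.07 and 0.571 in untreated cells (2.94 ± 0.42, edgeR adjusted p = 0.0011). It was at its highest here, with 3.96 and 2.82 at BMP2 day 10 and 3.12 and 2.10 on day 21. LINC02872 had 2.09 and 2.61, against 0.466 and 0.320 (2.58 ± 0.45, adjusted p = 0.0029), and LINC00857 had 4.49 and 3.65, against 0.365 and 0.751 (2.85 ± 0.55, adjusted p = 0.0044). Neither pair of groups overlapped. LINC01091 was lower, with 0 and 0.0157, against 0.284 and 0.334 in untreated cells (-4.88 ± 0.93, adjusted p = 0.0043). Over all 107, 40 were called, which fell to 25 without BMP2 day 5 replicate 2 and to 22 without either untreated library. The BMP2 libraries differed from one another in LINC01549, with 3.35 and 12.5 at BMP2 day 5, 13.6 and 0 on day 10 and 0.287 and 0 on day 21, against 0.0608 and 0 in untreated cells.

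At BMP2 day 10, 33 of 102 LINC RNAs chosen outside the 2 groups were higher than in untreated cells and 11 lower. That is 43.1%, against 36.3% of all genes tested and 43.1% of the genes at the threshold outside the groups, and 32.4% were higher, against 23.8% of those genes, and 10.8% lower, against 19.4%. Of the 44 calls, 16 held without any 1 library. LINC00960 had 3.30 and 7.87 TMM-scaled CPM, against 0.791 and 0.473 in untreated cells (3.15 ± 0.62, edgeR adjusted p = 0.0038), and LINC00327 had 1.46 and 4.07, against 0.203 and 0.320 (3.38 ± 0.69, adjusted p = 0.0045). In both, replicate 2 was the higher of the BMP2 libraries by more than the distance of replicate 1 from untreated cells. LINC00452 had 0.195 and 4.94 and LINC00968 0 and 7.40, both with no count in untreated cells, and the fibroblast markers differed in the same order between these libraries, 1538 and 13630. Their part in these levels was not tested. The LINC00452 call ended without either untreated library. That of LINC00968 ended without BMP2 day 10 replicate 2, where its log2 fold change was 0, and without any RA day 21, BMP2 day 21 or untreated library. Over all 107, 48 were called, which fell to 29 and 26 without untreated replicates 1 and 2, and to 7 when only the 4 libraries compared were fitted. Of those 7, 3 were higher and 4 lower, so the excess of higher calls at BMP2 day 10 was not seen in that fit.

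At BMP2 day 21, 33 of 95 LINC RNAs chosen outside the 2 groups were higher and 11 lower, 46.3% in all, against 47.1% of all genes tested and 55.1% of the genes at the threshold outside the groups. The higher share was 34.7%, against 29.2%, and the lower share 11.6%, against 25.9%. Of the 44 calls, 26 held without any 1 library. LINC00968 stood out, with 54.6 and 58.4 TMM-scaled CPM and no count in either untreated library, at least 2283-fold higher (edgeR adjusted p = 0.0080). It also had 2.96 and 3.15 at RA day 21, at least 123-fold higher, a call (adjusted p = 0.036) that ended without any RA day 21, BMP2 day 21 or untreated library. LINC00702, of the list of mesoderm RNAs, had 3.86 and 3.27, against 0 and 0.0557 in untreated cells (6.75 ± 1.47, adjusted p = 0.0041). LINC00960 had 5.46 and 9.72, against 0.791 and 0.473 (3.59 ± 0.63, adjusted p = 0.0013). LINC00607, an RNA known from endothelial cells and chosen through this group, had 7.37 and 8.27, against 0.162 and 0.0417 in untreated cells, and at most 1.43 in any other library. LINC00607, LINC00968 and LINC00702 are thus highest in the libraries with the largest fibroblast marker sums, 32850 and 31410. The endothelial marker in the table was at 0.0821 and 0 in these libraries, and the part of any cell type in these levels was not tested. LINC00173 was lower, with 0 and 0.0840, against 1.91 and 0.612 (-4.84 ± 1.06, adjusted p = 0.0043), and LINC00888 had 8.11 ± 0.01, against 15.6 ± 0.88 (SD, n = 2 each; -0.95 ± 0.20, adjusted p = 0.0040). Over all 107, 54 were called, and no single library moved that count by over 1.5 times.

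The 2 treatments were then set against each other on the same day. After 5 days, 7 of 103 LINC RNAs chosen outside the groups were higher with RA than with BMP2 and 5 lower, 11.7%, against 12.2% of all genes tested and 14.7% of the genes at the threshold outside the groups (7.24% higher, 7.51% lower). Of the 12 calls, 0 held when each library was left out in turn. LINC01116 had 1.26 and 2.80 TMM-scaled CPM with RA, against 0.266 and 0.252 with BMP2 (2.96 ± 0.64, edgeR adjusted p = 0.017). That call ended without RA day 5 replicate 2 or either BMP2 day 5 library. LINC00960 had 0.651 and 0.35 with RA, against 4.78 and 2.86 with BMP2 (-2.94 ± 0.61, adjusted p = 0.015), and ended without RA day 5 replicate 2 or BMP2 day 5 replicate 1. LINC02872 had 0.366 and 0.583, against 2.09 and 2.61 (-2.30 ± 0.45, adjusted p = 0.011), and ended without either RA day 5 library or BMP2 day 5 replicate 2. In none of the 3 did the groups overlap. Of all 107 the 12 called fell to 7 and 0 without RA day 5 replicates 1 and 2 and to 3 without either BMP2 day 5 library, and rose to 23 without either or both BMP2 day 10 libraries. Without RA day 5 replicate 2, where 0 were called, 19 had an unadjusted p under 0.05; DESeq2 called 30 of the 107 with all libraries in, 14 higher and 16 lower.

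After 10 days, 8 of 107 LINC RNAs were higher with RA than with BMP2 and 3 lower, 10.3%, against 10.8% of all genes tested and 13.2% of the genes at the threshold outside the groups (6.12% higher, 7.08% lower). Of the 11 calls, 0 held when each library was left out in turn. LINC00960 had 0.571 and 0.358 TMM-scaled CPM with RA, against 3.30 and 7.87 with BMP2 (-3.59 ± 0.63, edgeR adjusted p = 0.0088), ending without RA day 10 replicate 2 alone, with a log2 fold change of -3.29. LINC02210 had 12.6 and 11.2, against 4.74 and 5.41 (1.23 ± 0.27, adjusted p = 0.020), ending without either RA day 10 library. LINC00461, the host transcript of the neural microRNA miR-9-2, had 1.56 and 7.58 with RA, against 0.248 and 0.0447 with BMP2, and 3.82 and 0.729 at RA day 5, against 0.285 and 0.141. The 2 RA libraries differed in opposite order on the 2 days, and the call on day 10 (4.91 ± 1.38, adjusted p = 0.049) ended without any of 11 libraries, all but BMP2 day 10 replicate 1 and the 2 BMP2 day 21 libraries. The neuron markers were 1046 and 692 in the same RA day 10 libraries, an opposite order. The 11 called fell to 1 and 2 without RA day 10 replicates 1 and 2, to 2 without either RA day 21 library, to 7 without either RA day 5 library, to 6 and 5 without untreated replicates 1 and 2, and to 5 without BMP2 day 10 replicate 2, and rose to 17 without BMP2 day 10 replicate 1.

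After 21 days, 5 of 87 LINC RNAs chosen outside the groups were higher with RA than with BMP2 and 3 lower, 9.20%, against 12.1% of all genes tested and 14.6% of the genes at the threshold outside the groups (7.33% higher, 7.27% lower). LINC00173 kept its call without any 1 library. It had 8.20 and 7.40 TMM-scaled CPM with RA, against 0 and 0.0840 with BMP2 (7.48 ± 1.13, edgeR adjusted p = 0.0045), with 1.91 and 0.612 in untreated cells, between the treatments. LINC00846 had 1.08 and 0.714, against 0.103 and 0 (4.06 ± 0.95, adjusted p = 0.024), and LINC00960 had 0.956 and 1.64, against 5.46 and 9.72 (-2.54 ± 0.59, adjusted p = 0.024). Both ended without either RA day 21 library or BMP2 day 21 replicate 2. LINC00607, chosen through these groups, had 0.358 and 0.808, against 7.37 and 8.27, and LINC01091 had 1.91 and 1.21, against 0.185 and 0.252; neither pair overlapped. LINC00968, also chosen through these groups, had 2.96 and 3.15, against 54.6 and 58.4, and was not called. Over all 107 the 10 called fell to 1 without either RA day 21 library or BMP2 day 21 replicate 2 and to 6 without BMP2 day 21 replicate 1 or any BMP2 day 5 or untreated library, and rose to 20 without either or both BMP2 day 10 libraries. Among RNAs chosen outside the groups each time, LINC00960 was called lower with RA at all 3 times and LINC00664 higher at all 3. LINC00664 had 16 and 25.4 with RA on day 5, against 5.37 and 7.21 with BMP2, a call that ended without RA day 5 replicate 2 or either BMP2 day 5 library. Its day 10 call ended without any RA day 10 or day 21 library or BMP2 day 10 replicate 2, and its day 21 call without any library but the 2 of BMP2 day 10.

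Of the RNAs in the functional lists, the neural list held 7 names, of which LINC00461 and LINC01122 were expressed under a LINC name. LINC00689 and LINC01551 stayed below the threshold. LINC00599 stands in the table as MIR124-1HG and so is not among the 107; its group mean was at most 2.59 TMM-scaled CPM in treated cells, against 13.4 in untreated cells. LINC01122 stayed between group means of 0.737 and 1.13 TMM-scaled CPM, just inside the threshold. The mesoderm, muscle and stroma list held 9, of which LINC00702, LINC00607 and LINC00968 were expressed, all 3 highest at BMP2 day 21. Of the 5 names of that list that were tested, LINC00702 and LINC00968 were called higher at both RA day 21 and BMP2 day 21, and 0 were lower. LINC00607 is left out of the count at BMP2 day 21, the group through which it was chosen. Of the 4 tested neural names, 1 was higher and 1 lower at each day 21. Over all genes tested, 44.6% were called at RA day 21 and 47.1% at BMP2 day 21, and with so few names nothing is read from these counts. Of the 3 endoderm and epithelial RNAs, 0 reached the threshold, and the highest group mean was the 0.535 TMM-scaled CPM of LINC00261 at RA day 10. Of 7 stress and growth RNAs, LINC-PINT, which p53 induces, LINC00662, LINC00665 and LINC00839 were expressed under a LINC name. LINC01021 stands in the table as PURPL and LINC00152 as CYTOR, so neither is among the 107. Their lowest group means were 7.66 TMM-scaled CPM at BMP2 day 5 for PURPL and 7.94 in untreated cells for CYTOR. LINC-PINT had 3.85 and 4.09 at RA day 21 and 1.97 and 4.03 at BMP2 day 21, against 2.80 and 1.66 in untreated cells, and passed no test. Of 5 loci with a small protein, LINC00467 alone was expressed under its LINC name; it had 7.92 and 7.43 at BMP2 day 21, against 13.8 and 19.4 (-1.11 ± 0.32, edgeR adjusted p = 0.017), a call that ended without either BMP2 day 21 library or untreated replicate 2.

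The 32 RNAs at the threshold in all 7 groups varied about as much as broad genes do. The median ratio of their highest to their lowest group mean was 2.23, against 2.29 for all genes at the threshold in every group. LINC02693 was the steadiest, between 18.2 and 23.5 TMM-scaled CPM, a ratio of 1.29, and LINC00667 followed with 28.3 to 41.8. LINC00963 had the widest ratio, 64.5, then LINC00664 with 11.6 and LINC00937 with 9.98. At the edge of the rule, the RNAs just inside the threshold were LINC01122, LINC01139 and LINC00479, with 1.02, 1.03 and 1.07 CPM in the lower library of their best group. Just outside were LINC00158, LINC00449 and LINC00428, with 0.979, 0.957 and 0.911 CPM.

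A nearest protein-coding gene was found for 106 of the LINC RNAs, and 85 of these genes were tested. Counted were LINC RNAs chosen outside the 2 groups and called, with a tested neighbour. At RA day 21, 14 of 33 neighbours were called in the same direction, 5 in the opposite one and 14 not at all. At BMP2 day 21 the numbers were 19, 4 and 10 of 33, against 44.6% and 47.1% of all genes called in either direction. POFUT2, next to LINC00205, averaged 132 TMM-scaled CPM at RA day 21 and 119 at BMP2 day 21, against 40.9 in untreated cells (1.69 and 1.55 on the log2 scale, edgeR adjusted p = 0.00030 and 0.00040). PENK, which codes for proenkephalin and is the neighbour of LINC00968, averaged 64.4 at BMP2 day 21 and 6.34 at RA day 21, against 0.900 (6.16 and 2.81, adjusted p = 0.0021 and 0.048). MEF2C, a muscle and neuronal transcription factor beside LINC00461, averaged 22.1 at RA day 21 and 12.9 at BMP2 day 21, against 1.09 (4.33 and 3.55, adjusted p = 0.00017 and 0.00031), while LINC00461 had 1.67 and 1.32 at RA day 21 and 0 and 0.21 at BMP2 day 21, against 0.122 and 0.195, and passed neither test. EZR, next to LINC02901, averaged 563 at BMP2 day 21, against 431 in untreated cells (0.39, adjusted p = 0.28). SYNPR, beside LINC00698, averaged 5.96 at RA day 21, against 0.469 (3.68, adjusted p = 0.036), where LINC00698 was near 0.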

How the data were processed

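RNA sequencing of 14 NT2 libraries was analysed from 2 deposited tables of 25952 genes. The raw count table was made by the authors, and their RPKM values matched the whole gene span within 1% for 67 of 90 LINC RNAs. The submitters' processing notes name STAR, featureCounts, DESeq2 and hg19; their roles and the strandedness are not given in the sources used here. Between 66.0 and 73.5% of counts from 1 to 19 were even in each library, so a count may stand for 1 read of a pair. Symbols came from a current gene list, with GENCODE v29 names for IDs it lacks. Groups came from sample titles.

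Counts were tested with edgeR 4.0.16 in R 4.3.3: a mean for each group, fitted on the 14 libraries together, with TMM scaling, genes kept by filterByExpr at min.count 10 (19142 of them), quasi-likelihood F tests, Benjamini-Hochberg adjustment over all genes tested, and calls at an adjusted p under 0.05. All 107 LINC RNAs were tested. The SE is the log2 fold change divided by the square root of F. Folds against groups without counts use a floor of 3 counts over the group. In data simulated for RA day 21 against untreated cells (18605 genes tested), 49 genes were changed 4-fold and 50 genes 2-fold. Of these, 46.9% and 2% were recovered. With so few changed genes, an adjusted p under 0.05 asks for a smaller unadjusted p than in the data, where 8529 of 19142 genes were called. Real changes can be missed, but these shares do not measure how many were missed in the data. Alternatives were RLE factors, no filter, DESeq2 1.42.0, only the 4 libraries compared, a replicate block and leaving out each library, where the remaining library of that group takes its spread from the other groups. A fit without both BMP2 day 10 libraries was chosen after seeing the data. Python 3.11.15, pandas 2.3.3, NumPy 2.4.6 and matplotlib 3.10.9 were used.

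The RNAs, gene lists and tests were chosen with earlier results of these data known. Named were LINC00698, the 10 most abundant RNAs, the 3 most abundant of each peak group, the 4 largest called changes per direction and comparison whose libraries do not overlap, list members, and RNAs at the edge of the threshold. RefSeq windows run on GRCh38.p14, another build than hg19.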

Additional observations from a re-analysis of the deposited data

Results flagged for a closer look

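The 21 cases listed here are LINC RNAs that differed between RA and BMP2 on the same day by the edgeR test. They reach the threshold outside both groups, and the libraries of the 2 treatments did not overlap. Only the 4 largest called changes per direction and day were considered. Without these limits on size and overlap, 12, 11 and 8 RNAs chosen outside both groups were called on days 5, 10 and 21. These were 11.7, 10.3 and 9.2%, against 14.7, 13.2 and 14.6% of the genes at the threshold outside the groups. All values here are log2 fold changes of RA over BMP2. On day 5 they were 2.99 for LINC00877, 4.54 for LINC01091, 3.81 for LINC00242 and 6.37 for LINC-ROR, all higher with RA. LINC00960 (-2.94), LINC00632 (-1.81), LINC02872 (-2.3) and LINC00479 (-7.36) were lower with RA on that day. LINC00479 had no count at RA day 5, which makes it at least 13.7-fold lower; the fitted value depends on the prior count.

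On day 10 LINC01091 (3.22), LINC00461 (4.91), LINC00242 (3.7) and LINC-ROR (7.5) were higher with RA, and LINC00960 (-3.59), LINC00327 (-2.39) and LINC00452 (-7.04) lower. LINC-ROR had no count at BMP2 day 10 and was at least 13.1-fold higher with RA. LINC00242 lies by 85.8% inside LINC00574, whose reads cannot be told apart from its own. On day 21 LINC00173 (7.48), LINC00846 (4.06) and LINC00304 (1.68) were higher with RA, while LINC00862 (-5.75), LINC00960 (-2.54) and LINC00402 (-3.22) were lower. LINC00304 lies by 97.6% inside ACSF3 and LINC00846 by 28.6% inside TCP10L, both on the same strand. LINC00452 had 0.0381 and 0 TMM-scaled CPM at RA day 10, against 0.195 and 4.94 at BMP2 day 10; its call ended without any 1 of 13 libraries, with log2 fold changes of -10.24 to -3.34. LINC00862 had 0 and 0.0539 at RA day 21, against 0.123 and 3.09 at BMP2 day 21; its call ended without any 1 of 11 libraries, with values of -9.49 to -2.09. Of these 21 calls, that of LINC00173 held when any 1 library was left out. With 2 libraries per group, a single library far from the others of its group could not be looked for.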

How the results depend on the processing

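With DESeq2 more of the 107 LINC RNAs were called: 32 at RA day 5 against untreated cells (main value 16), and 30, 25 and 28 for RA against BMP2 on days 5, 10 and 21 (12, 11 and 10). With only the 4 libraries compared, 7 were called at BMP2 day 10 against untreated cells (48), 0 for RA against BMP2 on day 10 (19 of 101 tested had an unadjusted p under 0.05) and 31 on day 21. Without both BMP2 day 10 libraries, RA against BMP2 gave 23 calls on day 5 and 20 on day 21. The cause was not tested. Leaving out 1 library at a time gave 4 to 22, 13 to 41 and 29 to 56 calls at RA days 5, 10 and 21 against untreated cells, 22 to 51, 26 to 48 and 38 to 58 at the BMP2 days, and 0 to 23, 1 to 17 and 1 to 20 for RA against BMP2. The number of expressed LINC RNAs was then 107 to 115; it was 143 at 0.5 CPM and 72 at 2 CPM.

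Same-numbered libraries were not taken as pairs: with 2 pairs per comparison, the correlation of their deviations ran from -0.16 to 0.211. A replicate block left 7 calls for RA against BMP2 on day 10, against 11 without it, and in the other 8 comparisons kept the count within 1.5 times. Of 234 calls of RNAs chosen outside the groups compared, 4 were lost with RLE factors, 15 without a filter, 26 with the block, 67 of 221 with only the 4 libraries compared, and 0 with DESeq2; 87 held without any 1 library. No called value changed sign in any of these fits. With 2 libraries per group and counts this low, real changes can be missed, and how large they may be was not tested.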

Other observations

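Of 18 listed long noncoding RNAs without a LINC symbol, 4 were higher and 5 lower at RA day 21 than in untreated cells by the edgeR test, with a median log2 fold change of -0.15. At BMP2 day 21, 6 were higher and 7 lower, with a median of -0.73. Over all genes tested, 44.6% were called at RA day 21 and 47.1% at BMP2 day 21. The 4 RNAs described here were picked after their values were seen, and their levels are means of 2 libraries in TMM-scaled CPM. H19, an imprinted fetal RNA, averaged 15076 at RA day 21 and 8843 at BMP2 day 21, against 7.35 in untreated cells (11 ± 0.93 and 10.23 ± 0.91 on the log2 scale, edgeR adjusted p = 7.1e-05 and 6.9e-05). ESRG, known from human pluripotent cells, averaged 0.452 at RA day 21 and 2.15 at BMP2 day 21, against 1399 (-11.59 ± 1.63 and -9.34 ± 1.49, adjusted p = 0.00048 and 0.00076). FENDRR, an RNA of lateral mesoderm in the mouse, averaged 3.40 at BMP2 day 21 with no count in untreated cells (adjusted p = 0.0047). At RA day 21 FENDRR averaged 0.0808 (adjusted p = 0.12). NEAT1, which builds paraspeckles, averaged 52.5 at RA day 21 and 34.5 at BMP2 day 21, against 6.47 (3.02 ± 0.37 and 2.42 ± 0.36, adjusted p = 0.00026 and 0.00057).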
